A study of Canis lupus familiaris with 9 samples.

Results

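Fibroblast growth factors (FGFs) are signalling proteins, and FGF receptors are the tyrosine kinases on the cell surface that read them. The RNA signals of 7 ligand genes (FGF1, FGF2, FGF5, FGF7, FGF9, FGF10 and FGF18) and 3 receptor genes (FGFR1, FGFR2 and FGFR3) were compared in cultured dog cells. These 10 genes were taken by symbol from the platform's annotation, among 15947 named genes and 32205 probe sets in all. Each was read by 1 probe set, so no choice between probe sets arose, and each gene identifier carried the same symbol in the dog reference table.

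Of the 9 arrays, 3 carried RNA of skin-derived neural precursors (SKN), 3 of brain-derived ones (Brain) and 3 of skin fibroblasts (Fibroblast), all of them untreated. SKN cells were grown free of serum with 20 ng/mL epidermal growth factor, 40 ng/mL of an FGF that the labels write as β-FGF and 2% B-27 supplement, and at first as floating spheres. Fibroblasts were grown in medium with 10% fetal bovine serum. For Brain the labels used here name no medium, so cell type and medium cannot be told apart in any comparison, and the added FGF belongs to the SKN condition. The skin came from dogs at routine surgery. The labels do not say which dog or culture gave which array, nor the ages or brain region, so each p-value measures the spread between these arrays, which may be technical.

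Most FGFs are secreted, bind heparan sulfate on the cell surface and in the matrix, and bring receptor molecules together in pairs. The receptors then phosphorylate adaptor proteins that switch on the RAS-MAP kinase relay, phospholipase C gamma and phosphoinositide 3-kinase. Alternative splicing gives the receptors forms that accept different ligands, with the FGF7 and FGF10 group read mainly by an epithelial form of FGFR2. In the nervous system FGF signalling maintains neural and glial precursors, and in skin it acts between dermis and epithelium and in the hair cycle.

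All values are log2 signals as deposited, and 1 log2 unit is a 2-fold difference in signal. "Called" means an adjusted p under 0.05 from limma, a linear model fitted to all probe sets with Benjamini-Hochberg adjustment over all of them. Differences carry the standard error (SE) of that fit for 3 arrays against 3, and means carry the SD over the 3 arrays of a group. The table holds no detection calls, so folds against low readings are folds of signal and may differ from folds of RNA. In cultures measured as a whole, fewer cells of a type and less RNA per cell cannot be told apart.

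The cultures were first set against their markers. Fibroblast markers averaged 10.80 to 11.02 in SKN, 4.70 to 6.57 in Brain and 10.38 to 10.74 in Fibroblast. Of the neural precursor markers, NES was called higher in Brain than in Fibroblast (1.68 ± 0.23) and SOX2 was not. Between SKN and Fibroblast 0 of 7 were called, near the background of 3.34% of all probe sets. Between SKN and Brain 2 of 7 were called, NES (-1.67 ± 0.23) and PAX6 (-1.61 ± 0.38), both lower in SKN. Of all probe sets 8.73% were called lower there. FABP7, MSI1 and HES5 were called in 0 of the comparisons. In Brain, 5 of 6 measured oligodendrocyte lineage markers and 6 of 7 neural crest and Schwann markers were called higher than in Fibroblast. Over all probe sets that share was 11.2%. Among the Brain arrays Brain 3 had the highest fibroblast marker mean (6.57, against 4.70 and 4.76), and among the Fibroblast arrays Fibroblast 1 had the highest neural crest and Schwann mean (5.66, against 4.41 and 4.25). Results that rest on these 2 arrays are therefore also given without them, an alternative chosen after seeing the data. Across all probe sets, replicate arrays correlated at 0.978 to 0.985.

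Between SKN and Brain, 7 of the 10 genes were called, and 7 of the 10 were called between Brain and Fibroblast, while SKN and Fibroblast differed in 4. Of all probe sets 16.4% were called between SKN and Brain, 20.6% between Brain and Fibroblast and 3.34% between SKN and Fibroblast. The groups did not overlap for 7 members between SKN and Brain (32.7% of probe sets), 9 between Brain and Fibroblast (36.8%) and 6 between SKN and Fibroblast (22.5%). The members were chosen with these results known, so their shares are a description. Brain carried the highest signals of FGF2, FGF5, FGF9 and FGFR3, SKN those of FGF18 and FGFR1, and Fibroblast that of FGFR2. FGF7 was read strongly in both skin cultures and low in Brain, and FGF1 and FGF10 were called in 0 of the 3 comparisons. Without Fibroblast 1 and Brain 3, the counts were 6 between SKN and Brain, 6 between Brain and Fibroblast and 2 between SKN and Fibroblast.

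**Figure D1:**
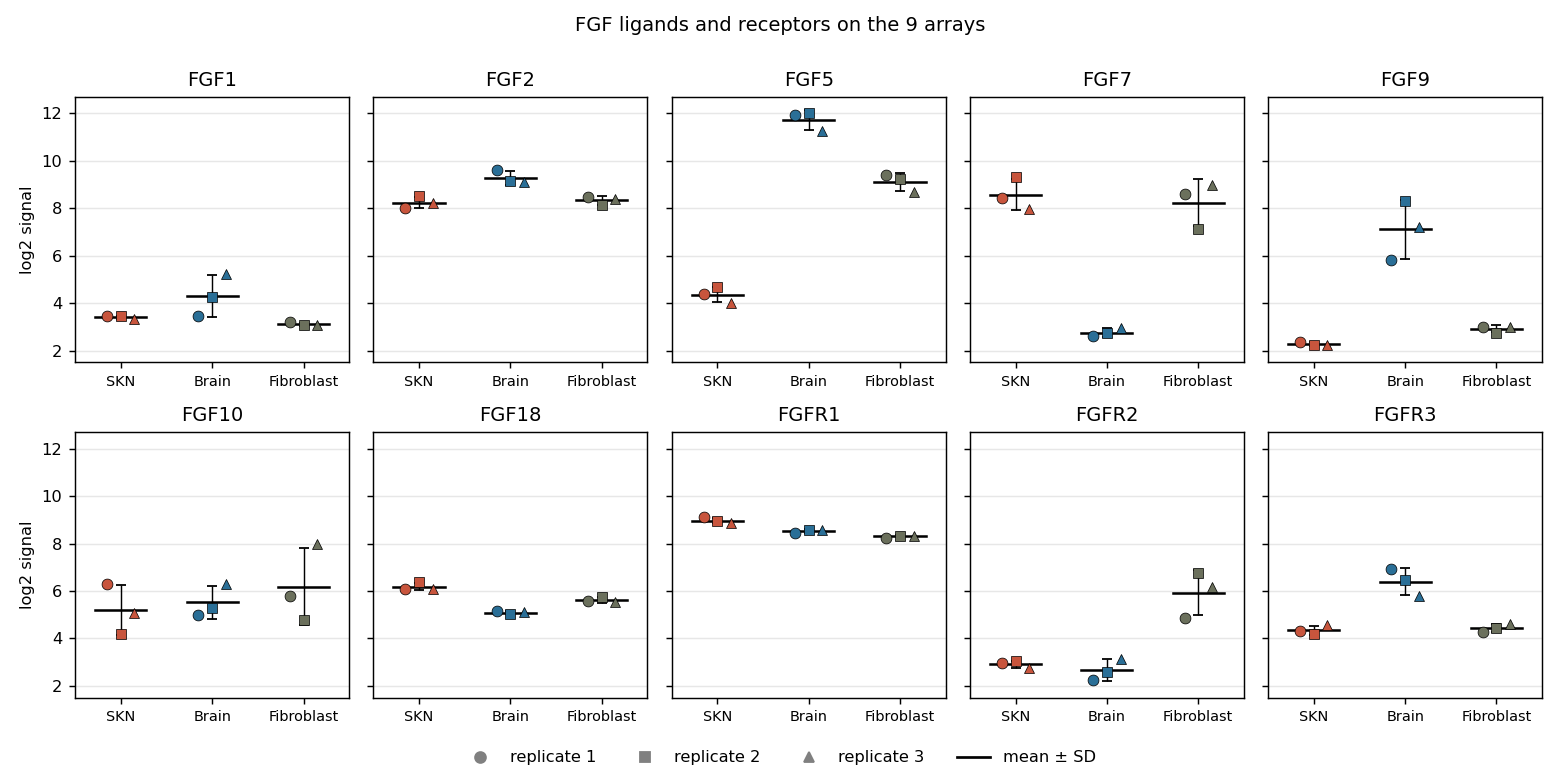
Log2 signal (vertical axis) of the 7 ligands and 3 receptors on each array, with SKN, Brain and Fibroblast from left to right; points are arrays, their shape the replicate number, and bars the mean ± SD of 3 arrays. FGF5 stands at 3 separate levels, FGF7 is low in the Brain arrays alone, FGF9 and FGFR3 are high in the Brain arrays, and FGFR2 is high in the Fibroblast arrays.

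FGF5, a secreted ligand that ends the growth phase of the hair cycle in mouse and whose variants set coat length in dogs, had the largest span of the 10 genes. Its signal was 4.39, 4.67 and 4.02 in the SKN arrays, 11.94, 11.99 and 11.24 in the Brain arrays and 9.38, 9.22 and 8.66 in the Fibroblast arrays. The 3 groups did not overlap, and all 3 pairs were called, in the order Brain, Fibroblast, SKN. SKN lay below Brain by 7.37 log2 units (-7.37 ± 0.27, limma adjusted p 1.84e-06), a signal 165-fold lower. SKN also lay below Fibroblast (-4.73 ± 0.27, limma adjusted p 1.43e-04), 26.5-fold lower. Brain exceeded Fibroblast 6.22-fold (2.64 ± 0.27, limma adjusted p 4.06e-04). SKN, whose medium contained FGF, thus had the lowest FGF5 signal. SKN and Fibroblast differed in medium as well as in cell type. Whether the Brain medium also contained FGF is not stated. The part of the medium in these FGF5 differences was not tested.

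FGF2, the basic FGF that lacks a classical secretion signal and is widely added to precursor cultures, was read in all 9 arrays between 8.01 and 9.62. It stood at 8.01, 8.50 and 8.21 in SKN, at 9.62, 9.13 and 9.09 in Brain, and at 8.48, 8.12 and 8.37 in Fibroblast. The Brain arrays all lay above the other arrays, and the SKN and Fibroblast arrays overlapped. SKN was lower than Brain (-1.04 ± 0.19, limma adjusted p 0.00653), and Brain was higher than Fibroblast (0.95 ± 0.19, limma adjusted p 0.00851). The difference between SKN and Fibroblast was -0.09, with a 95% confidence interval of -0.52 to 0.34.

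FGF1, the acidic FGF, which activates every FGF receptor, was not called. It read 3.44, 3.44 and 3.32 in SKN, 3.44, 4.24 and 5.23 in Brain and 3.19, 3.07 and 3.06 in Fibroblast. The Brain arrays were spread over 1.79 log2 units, against 0.12 in SKN and 0.13 in Fibroblast, and Brain 1 sat at the level of SKN. Brain 3, the Brain array with the highest fibroblast marker mean, had the highest FGF1 value. The Fibroblast arrays, with higher means of those markers, had the lowest FGF1 values. The difference of Brain from Fibroblast was 1.20 ± 0.37 (limma adjusted p 0.0523), although the groups did not overlap. It was called without Brain 1 (1.63, limma adjusted p 0.00555), with array weights (0.022), after median centring (0.0475) and after quantile normalization (0.0458). It was not called in 8 of the 9 removals of 1 array, and was smallest without Brain 3 (0.73). The difference of SKN from Brain (-0.90 ± 0.37, limma adjusted p 0.147) was called without Brain 1 (-1.34, 0.0135) and with array weights (0.0378). This difference too was not called in 8 of the 9 removals, and was smallest without Brain 3 (-0.44).

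FGF7, the keratinocyte growth factor, is made by dermal and other mesenchymal cells and acts on epithelium. Its signal was 8.44, 9.30 and 7.98 in SKN, 2.60, 2.72 and 2.94 in Brain and 8.62, 7.12 and 8.97 in Fibroblast. Every skin-derived array lay above every Brain array, and the SKN and Fibroblast arrays overlapped. SKN exceeded Brain by 5.82 ± 0.48 (limma adjusted p 1.18e-04), a signal 56.4-fold higher. Brain lay below Fibroblast by a similar amount (-5.48 ± 0.48, limma adjusted p 1.94e-04), 44.6-fold lower. SKN and Fibroblast differed by 0.34, with a 95% interval of -0.77 to 1.44, and the sign of that difference turned without Fibroblast 2 (-0.22). The fibroblast marker list moved with FGF7: 8 of 9 members were called higher in SKN than in Brain and 8 of 9 lower in Brain than in Fibroblast. Over all probe sets those shares were 7.64% and 9.37%. Brain 3 had that list's highest Brain mean, 6.57 against 4.70 and 4.76, and also the highest Brain reading of FGF7, 2.94. The Brain readings of FGF7 spanned only 0.34 log2 units. They lay below or near the lower quartiles of their arrays (2.94 to 2.95), so their order may be noise. The part of the marker list in the FGF7 difference was not tested.

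FGF10, a mesenchymal ligand of the same receptor form as FGF7, was called in 0 of the comparisons. It read 6.31, 4.19 and 5.07 in SKN, 4.98, 5.27 and 6.31 in Brain and 5.78, 4.79 and 7.96 in Fibroblast. All 3 groups overlapped, and the spread within Fibroblast alone was 3.17 log2 units, against 0.99 between the highest and lowest group means. Its SD pooled over the groups was larger than that of 99.5% of probe sets. The differences were -0.99 ± 0.82 for SKN against Fibroblast, -0.33 ± 0.82 for SKN against Brain and -0.66 ± 0.82 for Brain against Fibroblast (limma adjusted p 0.604, 0.859 and 0.627). Their 95% intervals were wide: for SKN against Fibroblast it ran from -2.87 to 0.90. Without Fibroblast 3, which carried the highest FGF10 signal of the 9 arrays, the difference of SKN from Fibroblast was -0.10, and that of Brain from Fibroblast turned to 0.23.

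FGF9, the glia-activating factor, is made by neurons and glia and is read by forms of FGFR2 and FGFR3. Its signal was 2.37, 2.24 and 2.24 in SKN, 5.80, 8.31 and 7.20 in Brain and 3.01, 2.74 and 3.01 in Fibroblast. The Brain arrays were all above the others but spread over 2.52 log2 units among themselves, with Brain 1 the lowest. SKN lay 28.2-fold below Brain (-4.82 ± 0.51, limma adjusted p 4.43e-04). Brain exceeded Fibroblast 18.2-fold (4.18 ± 0.51, limma adjusted p 9.15e-04). Between SKN and Fibroblast the groups did not overlap, but the difference was not called (-0.63 ± 0.51, limma adjusted p 0.594). The oligodendrocyte lineage markers averaged 4.37 to 4.68 in SKN, 7.78 to 8.17 in Brain and 4.48 to 5.43 in Fibroblast. Brain 1, lowest for FGF9, also had the lowest mean of the Brain arrays in that list. The members differed in this: SOX10, MOG and ENPP6 were lowest in Brain 1, UGT8 and CNP highest there, and MBP between. The neural crest and Schwann markers also had their lowest Brain mean in Brain 1, so this order does not single out the oligodendrocyte list. The part of either marker list in the FGF9 difference was not tested.

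FGF18, a ligand known for its role in bone, cartilage and lung and for its expression in hair follicles, varied little within groups. It read 6.08, 6.37 and 6.11 in SKN, 5.15, 5.01 and 5.11 in Brain and 5.56, 5.76 and 5.54 in Fibroblast. The 3 groups did not overlap, and all 3 pairs were called, in the order SKN, Fibroblast, Brain. SKN exceeded Brain 2.14-fold (1.10 ± 0.12, limma adjusted p 4.47e-04), and Brain lay below Fibroblast (-0.53 ± 0.12, limma adjusted p 0.0143). SKN exceeded Fibroblast 1.48-fold (0.57 ± 0.12, limma adjusted p 0.0387), but that call ended whichever of the 9 arrays was removed (limma adjusted p between 0.0519 and 0.123). It ended as well without variance moderation (0.0638), with the 6 arrays compared fitted alone (0.0896) and without Fibroblast 1 and Brain 3 (0.16). The call between Brain and Fibroblast ended without those 2 arrays (-0.57, 0.078).

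Among the receptors, FGFR1, the main receptor of mesenchymal cells and of neural precursors, had group means within 0.67 log2 units of each other. Its signal was 9.11, 8.93 and 8.88 in SKN, 8.46, 8.58 and 8.56 in Brain and 8.25, 8.34 and 8.31 in Fibroblast. The 3 groups did not overlap, and the within-group SD was smaller than that of nearly all probe sets, with 6.08% lower. SKN was 1.59-fold above Fibroblast (0.67 ± 0.10, limma adjusted p 0.0101) and 1.36-fold above Brain (0.44 ± 0.10, limma adjusted p 0.0177). Brain and Fibroblast, the lower neighbours, were not called apart (0.23, 95% interval 0.01 to 0.46, limma adjusted p 0.141). The call between SKN and Brain ended without SKN 1 (0.37, adjusted p 0.0517). Without Fibroblast 1 and Brain 3 it ended as well (0.45, 0.075), and so did the call between SKN and Fibroblast (0.65, 0.0723).

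FGFR2, the receptor whose epithelial splice form reads FGF7 and FGF10 and whose other form is found in mesenchyme and glia, was high in Fibroblast. It read 2.97, 3.04 and 2.74 in SKN, 2.26, 2.60 and 3.15 in Brain and 4.88, 6.74 and 6.17 in Fibroblast. Each Fibroblast array lay above all SKN and Brain arrays, and SKN and Brain overlapped. SKN was 8.06-fold below Fibroblast (-3.01 ± 0.43, limma adjusted p 0.00924), and Brain was 9.55-fold below it (-3.26 ± 0.43, limma adjusted p 0.00133). SKN and Brain differed by 0.24, with a 95% interval of -0.74 to 1.23. The lowest of the Fibroblast readings, 4.88, belonged to Fibroblast 1, the Fibroblast array with the highest neural crest and Schwann marker mean. Without variance moderation the call between SKN and Fibroblast ended (0.0555). Which splice forms the 1 probe set reads was not analysed here. Epithelial markers averaged 3.31 to 3.53 in SKN, 3.09 to 3.29 in Brain and 3.40 to 3.61 in Fibroblast. Of these, 0 of 7 were called between SKN and Fibroblast, beside 3.34% of all probe sets.

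FGFR3, which restrains bone growth and in the nervous system is known from astrocytes and oligodendrocyte precursors, was high in Brain. Its signal was 4.32, 4.18 and 4.56 in SKN, 6.94, 6.45 and 5.79 in Brain and 4.29, 4.43 and 4.63 in Fibroblast. Brain stood apart from both skin cultures, which overlapped. SKN was 4.11-fold below Brain (-2.04 ± 0.26, limma adjusted p 0.00124), and Brain was 3.85-fold above Fibroblast (1.94 ± 0.26, limma adjusted p 0.00149). SKN and Fibroblast differed by -0.10, with a 95% interval of -0.70 to 0.51. Brain 3, which had the highest fibroblast marker mean of the Brain arrays, had the lowest FGFR3 value of its group.

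**Figure D2:**
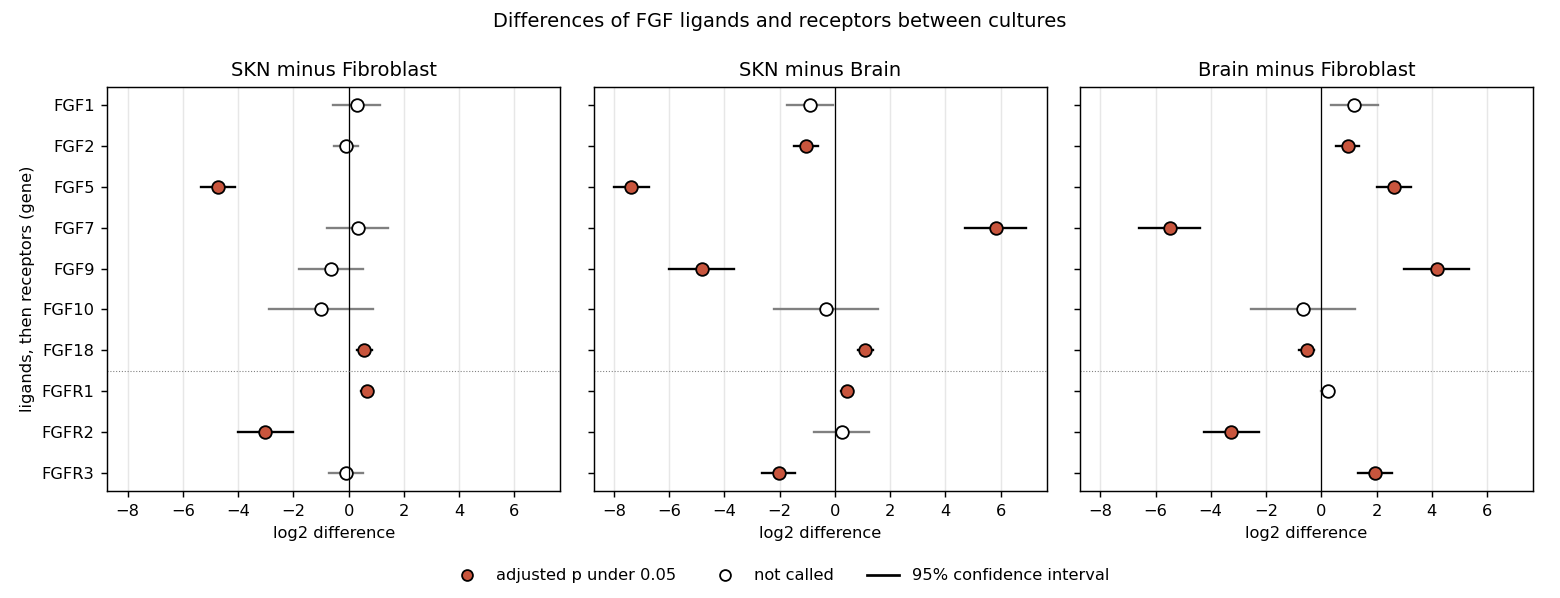
Log2 differences (horizontal axis) of the 10 genes for SKN minus Fibroblast, SKN minus Brain and Brain minus Fibroblast, with 95% confidence intervals of the limma fit; filled points are called at an adjusted p under 0.05. Between the 2 skin cultures FGF5 (-4.73) and FGFR2 (-3.01) lie farthest from 0, and the other differences there are smaller than 1 log2 unit.

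Of the 7 ligands, 2 were called between SKN and Fibroblast (FGF18 higher and FGF5 lower), beside 1.93% of probe sets called higher and 1.41% called lower. Between SKN and Brain 2 ligands were higher (FGF7 and FGF18) and 3 lower (FGF2, FGF5 and FGF9), beside 7.64% and 8.73% of probe sets. Between Brain and Fibroblast 3 ligands were higher (FGF2, FGF5 and FGF9) and 2 lower (FGF7 and FGF18), beside 11.2% and 9.37%. Of the 3 receptors, SKN had FGFR1 higher and FGFR2 lower than Fibroblast, FGFR1 higher and FGFR3 lower than Brain, and Brain had FGFR3 higher and FGFR2 lower than Fibroblast. FGF9 and FGFR3 were thus both highest in Brain. FGF7 was high in Fibroblast, where FGFR2 was highest, and in SKN, where the FGFR2 signal was low, which does not show absence. The 3 comparisons share arrays, so they are not independent of each other.

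The other 11 secreted ligands (FGF3, FGF4, FGF6, FGF8, FGF16, FGF17, FGF19, FGF20, FGF21, FGF22 and FGF23) read between 1.82 and 6.04, and none spanned more than 1.57 log2 units over the 9 arrays. Limma called 0 of the 11 between SKN and Fibroblast, 0 between SKN and Brain and 1 between Brain and Fibroblast. At an unadjusted p under 0.05 there were 1 between SKN and Fibroblast (16.8% of all probe sets), 1 between SKN and Brain (28.3%) and 1 between Brain and Fibroblast (33.1%). The 1 called was FGF21, an endocrine regulator of metabolism, lower in Brain by a small step (-0.47 ± 0.13, limma adjusted p 0.0347), and its call ended in 8 of the 9 removals of 1 array. FGFR4 and the Klotho co-receptors KL and KLB, which endocrine FGFs need, were called in 0 of the comparisons, with 0 at an unadjusted limma p under 0.05.

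The intracellular FGF homologous factors bind sodium channels and do not act as secreted ligands. FGF13, which also binds microtubules in neurons, read 5.91, 6.81 and 6.85 in SKN, 7.83, 8.41 and 8.01 in Brain and 7.09, 5.42 and 6.97 in Fibroblast. All Brain arrays lay above the others. It was called higher in Brain than in Fibroblast (1.59 ± 0.45, limma adjusted p 0.0388) and lower in SKN than in Brain (-1.56 ± 0.45, limma adjusted p 0.0486). These calls ended in 7 and 8 of the 9 removals. FGF14 was called higher in SKN than in Brain (0.66 ± 0.19, limma adjusted p 0.0485), a call that ended in 8 removals. Without Fibroblast 1 and Brain 3, 0 of the 4 homologous factors were called in any comparison.

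Proteins that bind FGFs or associate with their receptors formed a list of which 9 were measured. Of these, 1 was called higher and 0 lower between SKN and Fibroblast, 2 higher and 4 lower between SKN and Brain, and 4 higher and 2 lower between Brain and Fibroblast, beside 3.34%, 16.4% and 20.6% of all probe sets called in either direction. FLRT2, a transmembrane protein of a family that binds FGF receptors, read 8.81, 8.51 and 8.41 in SKN, 4.12, 4.18 and 4.51 in Brain and 6.16, 6.84 and 6.49 in Fibroblast. Its groups did not overlap, and SKN was above both Fibroblast (2.08 ± 0.20, limma adjusted p 0.00138) and Brain (4.31 ± 0.20, limma adjusted p 5.92e-06). Of the related FLRT1 and FLRT3, both were lower in SKN than in Brain (-3.40 ± 0.31 and -1.40 ± 0.33) and both higher in Brain than in Fibroblast (2.55 ± 0.31 and 2.52 ± 0.33). The neural adhesion molecules L1CAM and NCAM1, which can engage FGFR1, were lower in SKN than in Brain (-5.14 ± 0.34 and -2.70 ± 0.56), and the NCAM1 call ended without Fibroblast 1 and Brain 3. L1CAM was also higher in Brain than in Fibroblast (3.92 ± 0.34). ANOS1, a matrix protein that modulates FGFR1, was lower in Brain than in Fibroblast (-3.15 ± 0.41), with 5.84, 7.66 and 7.06 in the Fibroblast arrays.

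Heparan sulfate, the sugar chain that FGFs need to bind their receptors, is carried by core proteins and shaped by enzymes. Of 12 core proteins, 0 were called between SKN and Fibroblast (3 at an unadjusted p under 0.05), 3 higher and 3 lower between SKN and Brain, and 3 higher and 2 lower between Brain and Fibroblast. Over all probe sets the shares called were 3.34% (16.8% unadjusted), 16.4% and 20.6%, so a count of 0 of 12 between SKN and Fibroblast is near the background. The glypican GPC4 and the syndecan SDC2 were higher in SKN than in Brain (3.14 ± 0.33 and 2.55 ± 0.30) and lower in Brain than in Fibroblast (-3.71 ± 0.33 and -3.00 ± 0.30). AGRN, which clusters receptors at synapses, and SDC3, the neural syndecan, went the opposite way. They were lower in SKN than in Brain (-3.11 ± 0.29 and -1.86 ± 0.30) and higher in Brain than in Fibroblast (2.65 ± 0.29 and 2.19 ± 0.30).

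Of 17 measured enzymes of the chain, 0 were called between SKN and Fibroblast (5 at an unadjusted p under 0.05), 3 higher and 6 lower between SKN and Brain, and 7 higher and 2 lower between Brain and Fibroblast. The shares of all probe sets were again 3.34% (16.8% unadjusted), 16.4% and 20.6%. SULF1, which removes sulfate groups from heparan sulfate outside the cell and lowers FGF signalling, read 9.19, 9.73 and 10.05 in SKN, 3.96, 3.78 and 7.17 in Brain and 10.83, 10.76 and 9.89 in Fibroblast. The SKN and Fibroblast arrays overlapped and lay above all Brain arrays, of which Brain 3 was the highest. SKN exceeded Brain by 4.68 ± 0.81 (limma adjusted p 0.00532) and Brain lay below Fibroblast (-5.52 ± 0.81, limma adjusted p 0.00217). NDST3, a sulfotransferase that starts the modification of the chain, was lower in SKN than in Brain (-3.27 ± 0.43), as were EXTL3, which starts the chain (-1.36 ± 0.24), and heparanase, HPSE, which cuts it (-1.95 ± 0.38). Brain was above Fibroblast for NDST3 (3.91 ± 0.43), HPSE (2.11 ± 0.38) and NDST1 (1.79 ± 0.25). The HPSE calls ended without Fibroblast 1 and Brain 3, and 5 of the 17 enzymes were then called between SKN and Brain.

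Inside the cell, 19 members of the adaptor and relay list were measured. Limma called 1 higher and 0 lower between SKN and Fibroblast, 3 higher and 5 lower between SKN and Brain, and 5 higher and 2 lower between Brain and Fibroblast, against 3.34%, 16.4% and 20.6% of all probe sets. The count between SKN and Brain was 5 without Brain 2 and 5 without SKN 2, and the 1 call between SKN and Fibroblast is near the background. GAB1, a docking protein that couples FGF receptors to phosphoinositide 3-kinase, read 8.36, 7.76 and 7.59 in SKN, 9.89, 10.53 and 10.76 in Brain and 8.06, 8.26 and 7.84 in Fibroblast. It was lower in SKN than in Brain (-2.49 ± 0.27) and higher in Brain than in Fibroblast (2.34 ± 0.27). SOS2, which loads RAS with GTP, and the MAP kinase MAPK3 were also lower in SKN than in Brain (-1.22 ± 0.12 and -1.12 ± 0.19). In Brain they exceeded Fibroblast (1.29 ± 0.12 and 1.24 ± 0.19). PLCG1, the phospholipase that the receptors bind directly, was higher in SKN than in Brain (1.48 ± 0.15). NRAS was above Fibroblast in SKN (0.68 ± 0.12, limma adjusted p 0.0231) and in Brain (1.10 ± 0.12). The call in SKN ended in 5 of the 9 removals and without Fibroblast 1 and Brain 3.

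Feedback inhibitors and target genes, which FGF and EGF receptors both induce, were, of the 8 lists around the receptors, the one with most calls between the 2 skin cultures. Of 16 measured, 8 were called higher and 0 lower in SKN than in Fibroblast, 6 higher and 1 lower in SKN than in Brain, and 4 higher and 0 lower in Brain than in Fibroblast, where 3.34%, 16.4% and 20.6% of all probe sets were called. The count between SKN and Fibroblast was 4 without Fibroblast 2, 4 without Fibroblast 3 and 5 without SKN 1, and that between Brain and Fibroblast was 7 without Brain 1. The median differences were 1.01, 0.54 and 0.44, where those over all named genes were -0.04, 0.0072 and -0.06. The list overlaps one seen earlier in these data, so its direction is not independent evidence. SPRY1, an inhibitor of the RAS relay, was above Fibroblast in SKN (3.09 ± 0.23) and in Brain (3.32 ± 0.23). IL17RD, which binds and restrains FGF receptors, was higher in SKN than in Fibroblast (2.46 ± 0.24) and Brain (1.84 ± 0.24). The MAP kinase phosphatases DUSP6 and DUSP5 were above Fibroblast in SKN (2.33 ± 0.27 and 2.36 ± 0.39), and the DUSP5 call ended in 4 of the 9 removals. DUSP6 was also called above Fibroblast in Brain (1.65 ± 0.27). The transcription factors ETV4 and EGR1 were higher in SKN than in Brain (1.86 ± 0.32 and 1.46 ± 0.35), the EGR1 call ending in 2 removals. SPRY2 and SPRED2 were higher in Brain than in Fibroblast (3.09 ± 0.26 and 0.99 ± 0.21). For both, the SKN arrays also lay above the Fibroblast arrays, with means of 7.36 against 5.16 for SPRY2 and 5.85 against 5.10 for SPRED2. The EGR1 and SPRED2 calls ended without Fibroblast 1 and Brain 3. Without Fibroblast 1 and Brain 3 the list had 5 calls between SKN and Fibroblast, 5 between SKN and Brain and 3 between Brain and Fibroblast.

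**Figure D3:**
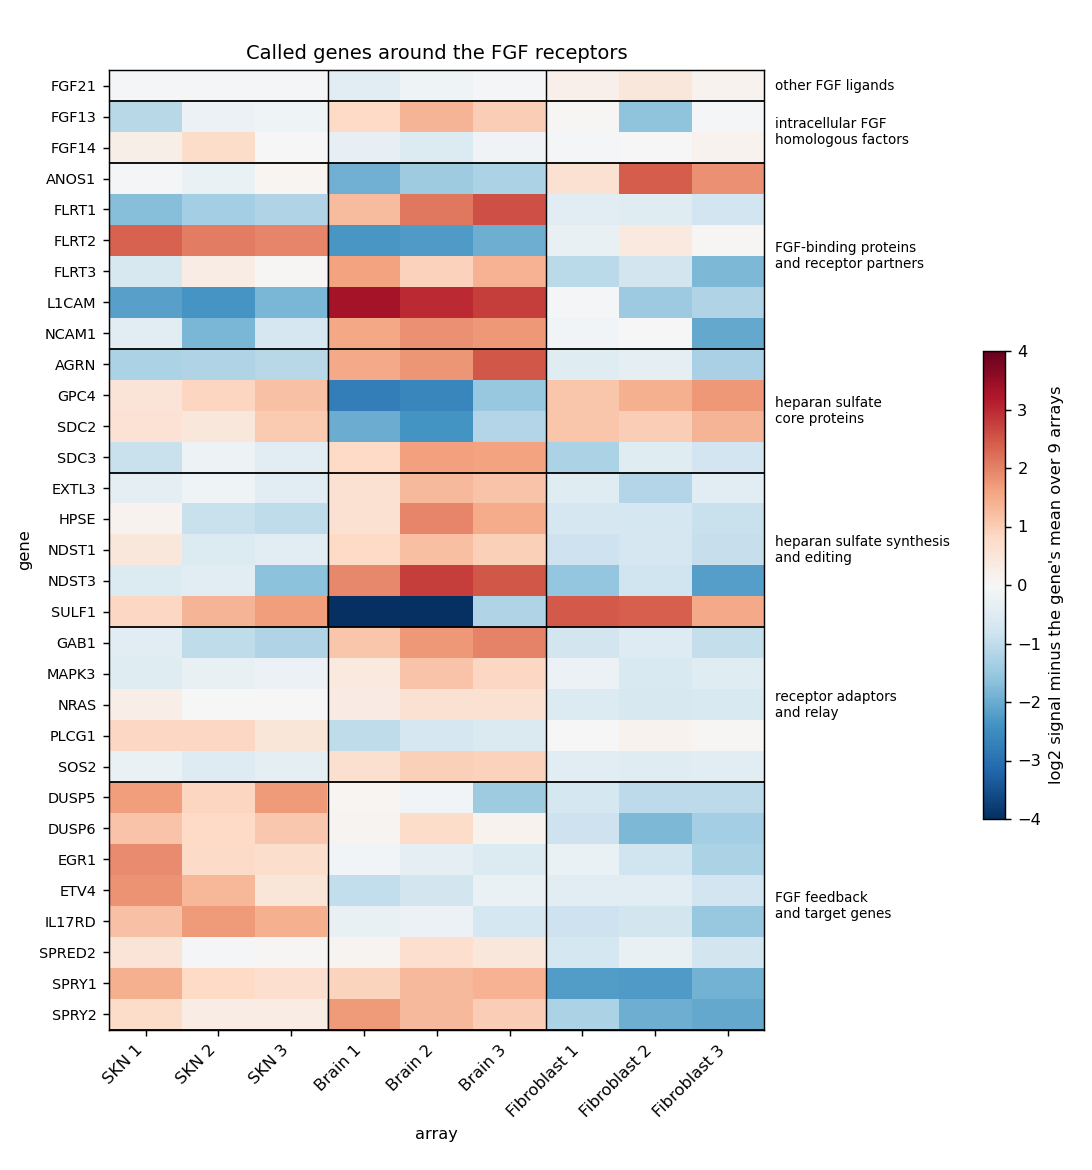
Log2 signal minus each gene's mean over the 9 arrays (colour, ending at 4 units on either side) for the genes named from the lists around the receptors (rows), on the SKN, Brain and Fibroblast arrays (columns). The Brain columns differ from the skin cultures for FLRT1, FLRT2, L1CAM, GPC4, AGRN, SULF1 and GAB1, and the feedback genes are lowest in the Fibroblast columns for SPRY1, SPRY2 and DUSP6.

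Genes with the most similar pattern were looked up for the 5 members whose group means spanned at least 2 log2 units. The measure was the root mean square distance between profiles over the 9 arrays, each centred on its own mean, against 15482 named genes. The distance grows with a member's span, so distances are not compared between members. The genes were picked for closeness over these same 9 arrays, so an order of arrays or groups shared with a member follows from the choice. Nearest to FGFR3 was GABBR1, a subunit of the GABA B receptor, at 0.162 log2 units, followed by TMC7 at 0.243 and NES, the intermediate filament of precursors, at 0.258, where the median over all genes was 1.02. GABBR1 read 5.17, 5.18 and 5.61 in SKN, 7.78, 7.56 and 6.88 in Brain and 5.63, 5.26 and 5.51 in Fibroblast, so it had its lowest Brain value in Brain 3, as FGFR3 did. FGF9 lay closest to GFRA3, the receptor of the neurotrophic factor artemin, at 0.389, then to CPNE4 at 0.436 and TENM1 at 0.501 (median 2.24). GFRA3 shared the order of the Brain arrays with FGF9, at 6.82, 9.58 and 8.57.

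FGF7 was nearest to ANPEP, a surface aminopeptidase of fibroblasts, at 0.518, then to the amino acid carrier SLC38A5 at 0.722 and to GFPT2, an enzyme of hexosamine synthesis, at 0.749 (median 2.72). FGFR2 was nearest to IGF2BP1, an RNA-binding protein, at 0.503, the vasoconstrictor endothelin, EDN1, at 0.516 and the membrane repair protein DYSF at 0.525 (median 1.56). For FGF5 the nearest genes were the potassium channel KCNK1 at 1.21, SORCS1 at 1.26 and LIN7A at 1.27 (median 3.07). KCNK1 had the same order of groups, with 6.52, 6.90 and 5.31 in SKN, 11.56, 11.16 and 10.63 in Brain and 8.96, 8.28 and 8.26 in Fibroblast. Among the 10 members themselves the nearest pair was FGF18 and FGFR1, at 0.363, both with SKN highest and both with narrow spans, of 1.10 and 0.67.

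**Figure D4:**
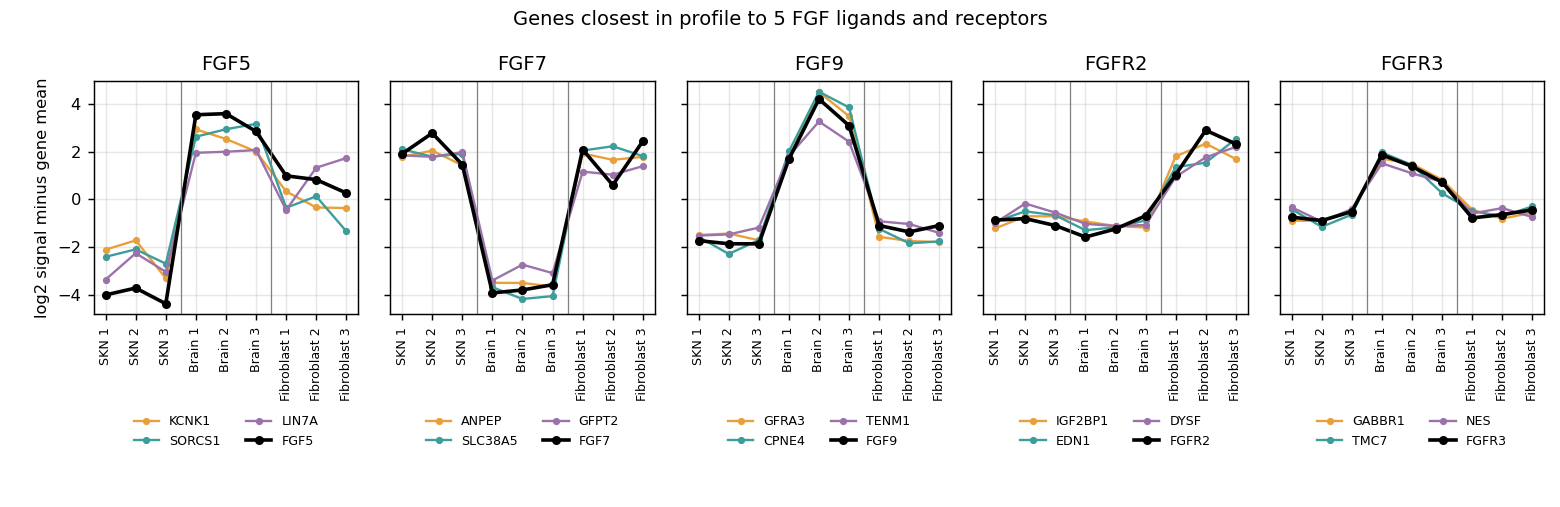
Log2 signal minus each gene's mean (vertical axis) on the SKN, Brain and Fibroblast arrays (horizontal axis) for FGF5, FGF7, FGF9, FGFR2 and FGFR3 (black) and the 3 genes nearest to each (coloured). GABBR1 lies 0.162 log2 units from FGFR3, whose group means span 2.04, and KCNK1 lies 1.21 from FGF5, whose group means span 7.37.

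The genes next to each member were also examined, to see whether a difference extended to its neighbours. Gene order came from the dog assembly UU_Cfam_GSD_1.0, which may not be the build behind the array, so it served for order alone. On either side of the 10 members, 20 measured protein-coding genes were the nearest. Limma called 0 of these 20 between SKN and Fibroblast (5 at an unadjusted p under 0.05), beside 3.34% of all probe sets (16.8% unadjusted). It called 2 higher and 4 lower between SKN and Brain, and 4 higher and 1 lower between Brain and Fibroblast, beside 16.4% and 20.6% of all probe sets. Beside FGF7, DTWD1 was higher in SKN than in Brain (1.46 ± 0.20) and lower in Brain than in Fibroblast (-1.41 ± 0.20), the directions of FGF7 at a smaller size. FAM227B, on the other side of FGF7, was called in 0 of the 3 comparisons. Beside FGFR3, TACC3 was higher in Brain than in Fibroblast (1.92 ± 0.52, limma adjusted p 0.0329), close in size to FGFR3 itself, but the call ended in 6 of the 9 removals and without Fibroblast 1 and Brain 3. Beside FGFR1, TACC1 was lower in SKN than in Brain (-1.26 ± 0.18), where FGFR1 was higher, and higher in Brain than in Fibroblast (0.96 ± 0.18), a call that ended without those 2 arrays. Beside FGF1, ARHGAP26 was lower in SKN than in Brain (-1.32 ± 0.32), a call that ended in 4 removals and without those 2 arrays, and higher in Brain than in Fibroblast (2.33 ± 0.32). The remaining called neighbours, NPM1 and FBXW11 beside FGF18 and LETM2 beside FGFR1, differed by under 1 log2 unit. Beside FGF5, CFAP299 was lower in SKN than in Brain (-1.56 ± 0.30), and PRDM8, on its other side, was called in 0 of the 3 comparisons. Both neighbours of FGFR2 (WDR11 and ATE1), of FGF9 (MICU2 and TNFRSF19), of FGF10 (NNT and MRPS30) and of FGF2 (BBS12 and NUDT6) were called in 0. The same held for LETM1 on the other side of FGFR3 and SPRY4 on the other side of FGF1. The neighbours named with values were picked after their values were seen.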

How the data were processed

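RNA of 9 dog cell cultures was measured on Affymetrix arrays as biotin-labelled cRNA. The authors deposited 1 table of log2 values for 32205 probe sets; the log base was inferred from the values, which ran from 0.561 to 13.47 with nearly equal quartiles per array. MAS5, RMA and Partek are named per the submitters' processing notes, without role, order or version, and the build is not given in the sources used here. The values were used as deposited, with no filter and no further normalization. The number of arrays, 3 per group, limits the precision.

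Gene names came from the platform annotation, where 16545 probe sets had 1 symbol, 370 several and 15290 no entry. The probe set with the highest mean stood for each gene. Limma 3.58.1 in R 4.3.3 (lmFit, eBayes without trend) was fitted with 1 coefficient per group over all 9 arrays, and p-values are two-sided. The fit was tested on simulated data. Groups came from the sample titles. Genes were named by rule: all 10 members, up to 4 called genes with the largest differences per pathway list and comparison, and the 3 genes nearest in pattern to each member spanning 2 log2 units or more; exceptions are marked. The members and the gene lists were chosen with earlier results of these data known. Alternatives covered variance moderation, array weights, arrays in the fit, a replicate block, scaling, a filter on low values, the threshold and the removal of arrays.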

Additional observations from a re-analysis of the deposited data

How the results depend on the processing

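Of 261 member differences recomputed under settings other than the removal of 1 array, 248 kept direction and call, 8 lost the call, 4 gained it and 1 turned sign. Of 270 under the removal of 1 array, 252 kept both, 10 lost the call, 2 gained it and 6 turned sign. The sign turned where no call had been made: FGF10 for SKN minus Brain was 0.067 without Brain 3 and 0.067 without Fibroblast 1 and Brain 3 together, and 0.17 without SKN 2; FGF10 for Brain minus Fibroblast was 0.23 without Fibroblast 3. FGF2 for SKN minus Fibroblast was 0.028 without SKN 1, and FGF7 was -0.22 without Fibroblast 2 and -0.03 without SKN 2. Over the 9 removals those differences ranged as follows: FGF2 for SKN minus Fibroblast from -0.22 to 0.028, FGF7 for SKN minus Fibroblast from -0.22 to 0.70, FGF10 for SKN minus Brain from -0.89 to 0.17 and FGF10 for Brain minus Fibroblast from -1.35 to 0.23. The cause was not tested.

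Between SKN and Fibroblast, where 4 members and 1076 probe sets were called, 2 members and 488 probe sets were called without variance moderation, 2 and 338 at an adjusted p under 0.01, and 2 and 516 without Fibroblast 1 and Brain 3, which leaves fewer samples. Between SKN and Brain 5271 probe sets became 2793 at 0.01 and 3366 without those arrays; between Brain and Fibroblast 6638 became 3369 and 3657. Removing 1 array gave 3 members called in each removal for SKN against Fibroblast, 6 to 8 for SKN against Brain and 7 to 8 for Brain against Fibroblast. The probe sets called then ranged from 513 (without Fibroblast 3) to 1095, from 3530 to 4986 and from 4876 to 6365; without Fibroblast 2, SKN 1 and SKN 3 the first comparison had 670, 593 and 624.

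With the replicate block, the members called were 3 for SKN against Fibroblast, 7 for SKN against Brain and 7 for Brain against Fibroblast, and FGF18 between SKN and Fibroblast was no longer called (adjusted p 0.0748). The same-numbered arrays' deviations correlated at -0.045 to 0.145 over 9 pairs, 1 of them over 0.1, so the numbers were not taken to pair the samples. Choosing another probe set per member was not run, since each had 1. The table has no detection calls, so low signals do not show absence.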
